A study of Homo sapiens with 36 samples.

Results

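Zinc handling was followed through 10 genes out of the 57500 gene rows of the count tables: the zinc importers SLC39A8, SLC39A14 and SLC39A10, the zinc exporter SLC30A1, the metallothioneins MT2A, MT1X, MT1E, MT1F and MT1G, and the zinc-sensing transcription factor MTF1. They were found by symbol, and all 10 passed the filter on low counts that left 17720 genes for testing. The set was chosen by name and selected on 1 measured comparison, 10% against 5% CO2 in LPS-treated cells, in which SLC39A8 and SLC39A14 were higher. That comparison is therefore given only as a description. No other comparison that holds an LPS-treated library is tested for SLC39A8 or SLC39A14, since those libraries entered the choice.

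The libraries came from THP-1 cells, an established human monocytic leukaemia line, transduced with lentiviral particles for a non-target shRNA (shNT) or for shRNAs against NR4A2 (shNR4A2) or NR4A3 (shNR4A3), 2 orphan nuclear receptors. All cells were kept for 4 h in an environmental chamber in pH-buffered DMEM, at 5% or 10% CO2. LPS, the bacterial endotoxin, was present at 2.5 µg/ml for the final 2 h or was left out. This gave 12 conditions with 3 replicates each, 36 libraries in all, and the question put to them was how elevated CO2 (hypercapnia) acts on monocyte transcripts with and without inflammation. There was 1 line per shRNA, whether a line was 1 clone is not given in the sources used here, and so an effect of the hairpin and a difference between lines cannot be told apart. The study describes its replicates as individual experiments, and the labels only number them, so p-values measure the spread between these samples.

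Free zinc in a cell is set by importers of the SLC39 (ZIP) family, which carry zinc into the cytosol, and by exporters of the SLC30 (ZnT) family, which carry it out or into vesicles. Metallothioneins are small cysteine-rich proteins that bind the surplus. MTF1 binds zinc and then metal response elements in promoters, and the metallothionein genes and SLC30A1 are its classical targets. In monocytes and macrophages SLC39A8 is known as an endotoxin-inducible importer, and SLC39A14 carries iron and manganese as well as zinc.

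The promoters of 3 of the genes are shown because the 2 metallothioneins rose together at 10% CO2 while SLC30A1, another classical target of MTF1, did not pass the test. Each run holds the 250 bases before the RefSeq start site, 5′ to 3′ on the gene's strand, in the GRCh38.p14 coordinates of the RefSeq table. Capitals mark the core of the metal response element, searched as TGCACNC or TGCGCNC on both strands.
MT2A, chr16:56608334-56608583, plus strand: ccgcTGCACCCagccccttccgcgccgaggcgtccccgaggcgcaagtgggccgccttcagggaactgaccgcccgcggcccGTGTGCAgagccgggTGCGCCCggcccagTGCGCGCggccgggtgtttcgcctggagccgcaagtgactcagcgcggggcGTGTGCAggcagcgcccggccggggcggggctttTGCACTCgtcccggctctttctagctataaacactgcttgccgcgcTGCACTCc
MT1X, chr16:56682220-56682469, plus strand: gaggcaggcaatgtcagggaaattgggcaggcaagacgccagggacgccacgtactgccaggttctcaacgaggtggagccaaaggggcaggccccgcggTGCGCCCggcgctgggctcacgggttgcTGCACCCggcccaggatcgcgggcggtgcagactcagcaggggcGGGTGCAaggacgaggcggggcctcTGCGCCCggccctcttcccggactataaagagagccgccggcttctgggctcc
SLC30A1, chr1:211579162-211579411, minus strand: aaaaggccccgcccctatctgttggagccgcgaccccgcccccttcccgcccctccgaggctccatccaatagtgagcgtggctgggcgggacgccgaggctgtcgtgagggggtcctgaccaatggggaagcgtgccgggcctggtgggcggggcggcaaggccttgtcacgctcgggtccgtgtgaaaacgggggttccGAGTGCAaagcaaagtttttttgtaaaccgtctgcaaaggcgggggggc
The MT2A window held 7 matches, the MT1X window 4 and the SLC30A1 window 1, and none overlapped another. The RefSeq start sites differ from the ends of the genes in the count tables. The MT2A window lies inside the counted span of its gene, the MT1X window partly inside and the SLC30A1 window wholly outside. A link between these matches and the CO2 response was not tested. Of 35116 windows of the same length, 24.8% held at least 1 match and 0.370% held 4 or more. The MTF1 window and both SLC39A10 windows held none, and 1 of 3 SLC39A8 windows held 1. The NF-κB motif, which 9.96% of all windows held, was matched in 2 of the 3 SLC39A8 windows, which overlap each other, and in no window of MT2A, MT1X, SLC30A1, SLC39A10 or MTF1. The RefSeq table matched 6 of the 10 genes, and MT1E, MT1F, MT1G and SLC39A14 were not among them.

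The 5 metallothioneins lie within 76.0 kb of chromosome 16 (chr16:56608199-56684196 in GRCh38, as in the count tables). They are close paralogs, so reads that fit several of them may have been lost or misplaced in counting, and the split between single MT1 genes is uncertain. MT1X also shares its span with an unnamed gene on the same strand. By the identifiers of the count tables, SLC39A8 is ENSG00000138821, SLC39A14 ENSG00000104635, SLC39A10 ENSG00000196950, SLC30A1 ENSG00000170385 and MTF1 ENSG00000188786, and MT2A, MT1X, MT1E, MT1F and MT1G are ENSG00000125148, ENSG00000187193, ENSG00000169715, ENSG00000198417 and ENSG00000125144. SLC39A8 lies at chr4:102251041-102431258, SLC39A14 at chr8:22367249-22434129, SLC39A10 at chr2:195575977-195737702, SLC30A1 at chr1:211571568-211578742 and MTF1 at chr1:37809567-37859620. SLC39A8, SLC39A14, SLC39A10 and MTF1 each share their span with pseudogenes, small RNA genes or unnamed genes, and the strand setting of the counting is not given in the sources used here.

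Library totals ran from 16171161 to 23929138 counts. NR4A2 with LPS had a median of 16.2 TPM (a level corrected for depth and gene length) in shNR4A2 cells against 51.4 TPM in shNT cells. NR4A3 with LPS had a median of 16.8 TPM in shNR4A3 cells against 32.1 TPM in shNT cells, so both labels matched their targeted gene, and the knockdowns were partial. The summed level of 9 monocyte markers was 873 to 1274 TPM in shNT libraries, 1535 to 1906 in shNR4A2 libraries and 1660 to 2293 in shNR4A3 libraries. CD68 and MPO were low, at no more than 6.46 TPM in any library. The summed level of 10 markers of other cell types was 120.0 to 269 TPM in shNT, 194 to 334 in shNR4A2 and 156 to 259 in shNR4A3 libraries, nearly all of it PECAM1 and NKG7. The defining T cell, B cell, epithelial and red cell markers CD3E, MS4A1, EPCAM and HBB were at or near 0, with no more than 7 counts in a library. In bulk RNA, a change in the number of cells of a kind and a change in RNA per cell cannot be told apart.

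Per length, the metallothioneins were among the most abundant of the set at rest. In untreated shNT cells at 5% CO2, MT1E stood highest at 118 ± 11.7 TPM (SD, n = 3), above MT1G at 72.0 ± 7.48 TPM. SLC39A8 (52.5 ± 1.39 TPM), SLC30A1 (51.9 ± 4.68), MT2A (49.1 ± 7.57) and MT1F (49.0 ± 2.40) followed, each overlapping its neighbour. MT1X (32.4 ± 2.94 TPM) overlapped SLC39A14 (28.1 ± 1.76 TPM), and MTF1 (21.0 ± 3.71 TPM) overlapped SLC39A10 (17.3 ± 0.887 TPM), the lowest of the 10. In shNT cells at 10% CO2 with LPS the order had changed. MT2A was then first at 152 ± 52.8 TPM, overlapping MT1E at 143 ± 23.3 TPM. MTF1 had moved up to 105 ± 6.22 TPM, beside SLC39A8 at 109 ± 5.20 TPM, and SLC30A1 had moved down to 24.8 ± 2.55 TPM.

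Across the 12 conditions, values for single libraries are given as TMM-scaled CPM, counts per library size, which correct for depth and composition but not for gene length. The widest span belonged to MTF1, whose highest condition mean was 8.62 times its lowest. MT2A followed with 5.27 times and SLC39A8 with 4.86 times, and MT1F was narrowest with 1.503 times. For 7 of the 10 genes, MTF1, SLC39A8 and the 5 metallothioneins, the highest condition was shNR4A2 at 10% CO2 with LPS. SLC39A14 was highest in shNR4A3 at 10% CO2 with LPS (135 ± 5.51 CPM, SD, n = 3), and within each line its means rose from 5% CO2 through 5% CO2 with LPS and 10% CO2 to 10% CO2 with LPS. When the conditions of a gene were ordered by their means, between 7 and 11 of the 11 neighbouring pairs overlapped, so only the large steps stand out from the spread. SLC39A8 had 4 such steps without overlap and MTF1 had 3, whereas MT1X, MT1E and MT1F had none.

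**Figure D1:**
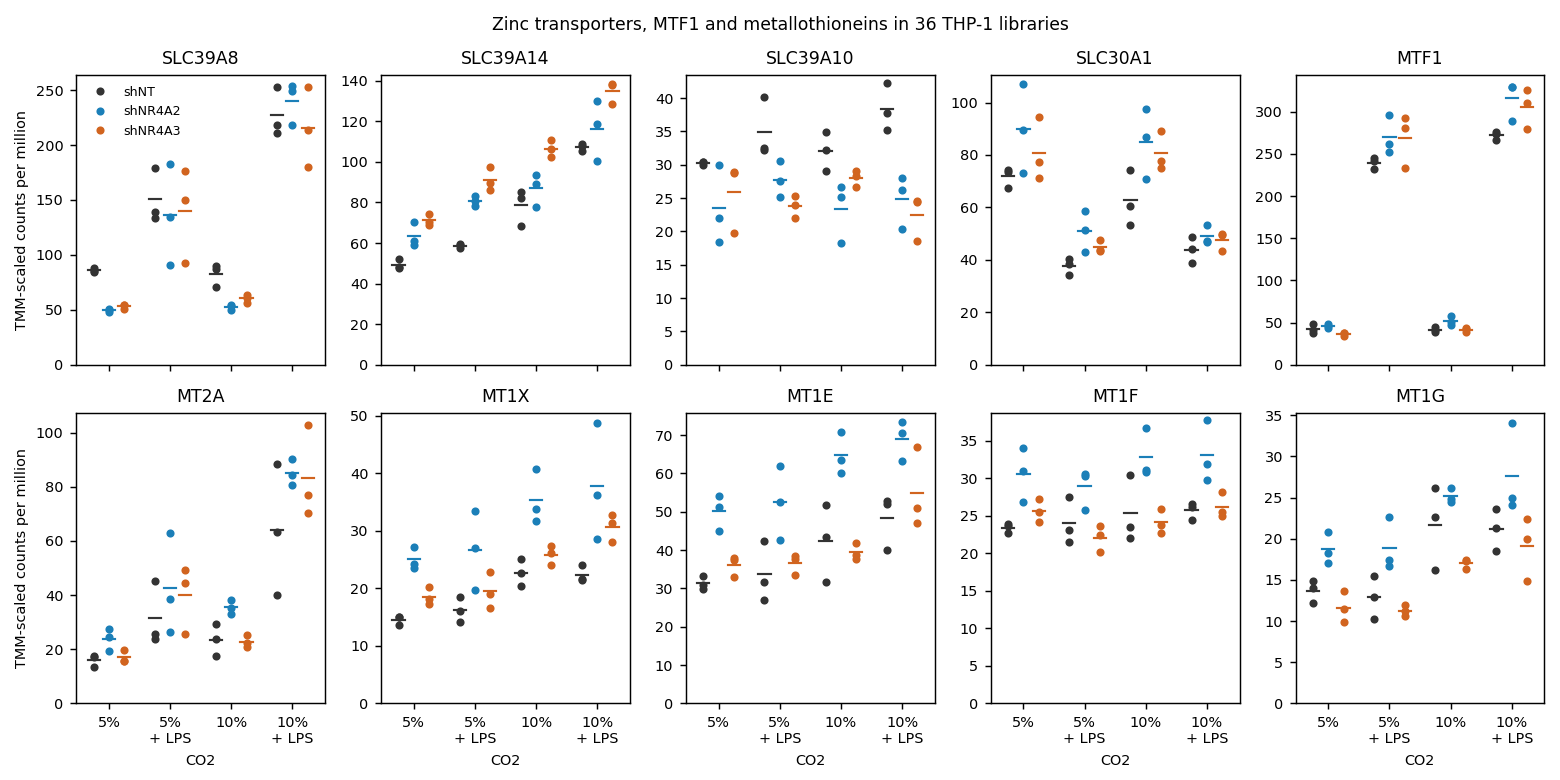
TMM-scaled CPM of the 10 genes (vertical axes, from 0) in 4 treatments (horizontal axes), with a point for each of 36 libraries, a bar for the mean of 3 and colours for the lines. MTF1 and SLC39A8 stand higher in LPS libraries, SLC30A1 stands lower, and MT2A is highest at 10% CO2 with LPS.

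The first question was how LPS acted on the set at each CO2 level. MTF1 rose most, MT2A rose in 5 of 6 comparisons and SLC30A1 fell in all 6. Of the 8 genes other than SLC39A8 and SLC39A14, 3 passed edgeR's quasi-likelihood test at an adjusted p under 0.05 in shNT cells at 5% CO2, where 22.9% of all genes passed, and 3 at 10% CO2, where 31.2% passed. In shNR4A2 cells 2 passed at 5% CO2 (18.2% of all genes) and 3 at 10% CO2 (35% of all genes). In shNR4A3 cells 3 passed at 5% CO2 (25.3% of all genes) and 6 at 10% CO2 (42.1% of all genes). The median log2 fold change of the 10 genes was between 0.04 and 0.32, beside medians between -0.01 and 0.00 over all genes. In the shNR4A2 cells at 5% CO2 the replicate numbers paired the libraries, and with the replicate as a block MT2A passed as well.

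MTF1, the metal-sensing activator, stood at 41.7, 37.2 and 48.5 CPM in untreated shNT cells at 5% CO2 and at 232, 241 and 245 CPM with LPS. At 10% CO2 it went from 44.2, 41.7 and 39.3 to 266, 276 and 274 CPM. No LPS library of any line came near an untreated one. The log2 fold change was 2.50 ± 0.10, adjusted p = 7.88e-12 at 5% CO2, a 5.67-fold rise, and 2.71 ± 0.09, adjusted p = 2.85e-13 at 10% CO2. In shNR4A2 cells it was 2.54 ± 0.12 and 2.61 ± 0.11, and in shNR4A3 cells 2.87 ± 0.11 and 2.90 ± 0.08, with adjusted p no higher than 2.82e-09 in any of them.

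SLC39A8, the endotoxin-inducible importer, is described here with no test. In shNT cells at 5% CO2 it went from 85.7, 88.0 and 84.8 CPM without LPS to 134, 139 and 179 CPM with LPS, and at 10% CO2 from 90.3, 86.9 and 70.8 to 218, 252 and 211 CPM. In shNR4A2 cells the step was from 49.5, 47.8 and 51.0 to 134, 90.5 and 183 CPM at 5% CO2 and from 53.2, 49.7 and 54.5 to 254, 249 and 218 CPM at 10% CO2. In shNR4A3 cells it was from 50.6, 54.2 and 54.4 to 176, 93.0 and 149.6 CPM and from 61.1, 63.6 and 56.3 to 253, 214 and 179.8 CPM. All LPS libraries lay above the untreated libraries of the same line, and replicate 2 of both knockdown lines at 5% CO2 with LPS lay well below the other two. The log2 differences were 0.82 ± 0.11, 1.46 ± 0.21 and 1.40 ± 0.21 in shNT, shNR4A2 and shNR4A3 cells at 5% CO2. They were 1.47 ± 0.11, 2.20 ± 0.10 and 1.86 ± 0.11 at 10% CO2.

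The importer SLC39A14 moved less with LPS. In shNT cells it stood at 52.1, 47.6 and 48.3 CPM without and 59.1, 57.4 and 59.7 CPM with LPS at 5% CO2, and at 85.3, 82.0 and 68.6 and 108, 109 and 105 CPM at 10% CO2. The groups did not overlap, and the log2 differences over the 6 comparisons lay between 0.26 and 0.46. The size of the difference depends on the scaling. Where only library size was corrected, the median of all genes in the LPS comparisons shifted by -0.18 to -0.25 on the log2 scale, and the difference of SLC39A14 in shNT cells at 5% CO2 became 0.08 ± 0.09.

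SLC39A10, an importer of the plasma membrane, gave no shared direction. At 10% CO2 in shNT cells it stood at 34.9, 32.3 and 29.1 CPM without and 35.2, 42.3 and 37.8 CPM with LPS, a log2 difference of 0.27 ± 0.11, adjusted p = 0.0825. With the replicate as a block, which pairs these libraries, this gave an adjusted p of 0.0258, and without untreated replicate 1 at 10% CO2 it gave 0.029. In shNR4A3 cells at 10% CO2 it stood at 26.7, 29.0 and 28.3 CPM without and 18.5, 24.6 and 24.4 CPM with LPS and fell, with a log2 fold change of -0.30 ± 0.11, adjusted p = 0.0421. That call was lost without untreated replicate 1, 2 or 3 (adjusted p = 0.0553, 0.129 and 0.106) or LPS replicate 1 (0.149), with DESeq2 (0.0779) and in 1 fit to all 36 libraries (0.112).

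SLC30A1, the zinc exporter of the plasma membrane, went the other way. In shNT cells at 5% CO2 it stood at 73.6, 67.5 and 74.4 CPM without LPS and at 34.3, 40.3 and 38.5 CPM with LPS, and at 10% CO2 at 74.4, 60.7 and 53.5 and 38.8, 48.7 and 44.0 CPM. The groups did not overlap in any line. The log2 fold change was -0.92 ± 0.10, adjusted p = 1.94e-06 at 5% CO2 and -0.51 ± 0.13, adjusted p = 0.0051 at 10% CO2. In the knockdown lines it lay between -0.74 and -0.85, with adjusted p no higher than 0.00196. SLC30A1 held its call under every alternative and on leaving out any library.

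Among the metallothioneins, LPS raised mainly MT2A, the isoform that is expressed in most tissues. In shNT cells MT2A went from 13.6, 17.2 and 17.6 to 23.8, 25.7 and 45.4 CPM at 5% CO2 and from 17.4, 24.0 and 29.2 to 40.0, 88.3 and 63.3 CPM at 10% CO2. Replicate 3 at 5% CO2 with LPS stood far above the other two, and replicate 1 at 10% CO2 with LPS lay far below the other two. The log2 fold changes were 0.98 ± 0.27, adjusted p = 0.0386 and 1.45 ± 0.35, adjusted p = 0.0283. Neither call held without any 1 of the untreated libraries of its own CO2 level, where the adjusted p rose to 0.0939, 0.0912 and 0.128 for replicates 1, 2 and 3 at 5% CO2 and to 0.106, 0.0904 and 0.0655 at 10% CO2. The call at 10% CO2 was also lost with no filter (0.0929).

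In shNR4A3 cells MT2A went from 15.6, 19.8 and 15.7 to 44.6, 25.8 and 49.3 CPM at 5% CO2 and from 20.7, 25.1 and 22.3 to 77.0, 103 and 70.3 CPM at 10% CO2. The log2 fold changes were 1.23 ± 0.23, adjusted p = 0.00393 and 1.89 ± 0.14, adjusted p = 2.44e-06. With the replicate as a block, which pairs these libraries, the call at 5% CO2 was lost, with an adjusted p of 0.0624. In shNR4A2 cells at 10% CO2 MT2A went from 35.1, 38.3 and 33.0 to 80.8, 90.1 and 84.3 CPM (1.27 ± 0.10, adjusted p = 8.53e-08). At 5% CO2 it went from 19.3, 27.3 and 24.4 to 38.7, 26.4 and 62.8 CPM and the groups overlapped (0.85 ± 0.27, adjusted p = 0.0578). That value passed with the replicate as a block (adjusted p = 0.0173), DESeq2 (0.00442), no filter (5.91e-06) or 1 fit to all 36 libraries (0.0295) and without LPS replicate 2 (0.00141).

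The MT1 genes gave smaller values with LPS. MT1F and MT1G passed in none of the 6 comparisons, with log2 differences between -0.22 and 0.19. With library size only, MT1F in shNR4A3 cells at 5% CO2 stood at -0.41 and passed (adjusted p = 0.0118). MT1X and MT1E passed in 1, the shNR4A3 cells at 10% CO2. There MT1E went from 38.7, 41.9 and 37.6 to 47.2, 66.9 and 50.9 CPM (0.50 ± 0.12, adjusted p = 0.00453) and MT1X from 26.1, 27.4 and 24.0 to 31.4, 32.8 and 28.0 CPM (0.27 ± 0.09, adjusted p = 0.0311). The MT1X call was lost without untreated replicate 1 or 3 (adjusted p = 0.0595 and 0.132) or LPS replicate 1 or 2 (0.0708 and 0.125), with DESeq2 (0.0645), with no filter (0.13) and in 1 fit to all 36 libraries (0.207), and both calls were lost where only library size was corrected. MT1G passed there without LPS replicate 3 (adjusted p = 0.0271).

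**Figure D2:**
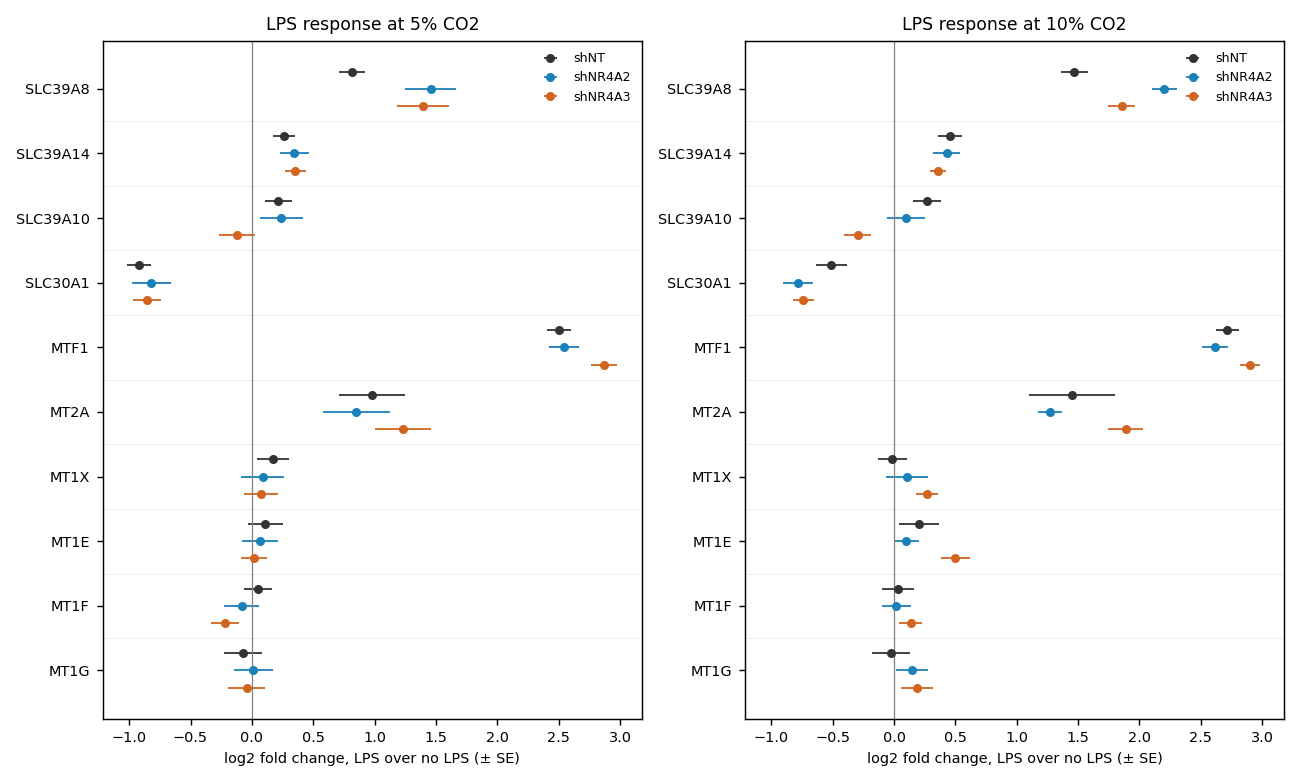
Log2 fold change with LPS (horizontal axes, points with SE bars) of the 10 genes at 5% CO2 (left) and 10% CO2 (right) in shNT, shNR4A2 and shNR4A3 cells. MTF1 lies at 2.50 to 2.90, SLC30A1 lies below 0 in all 6 comparisons, and MT1F and MT1G lie near 0.

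The second question was whether 10% CO2 acted on the genes without LPS, in libraries outside the comparison used for the choice. The genes were chosen with earlier results of these data known, so these values are not an independent check. SLC39A14 and 4 of the 5 metallothioneins were higher at 10% CO2, by 0.32 to 0.57 on the log2 scale over the lines together, and the other 5 genes did not pass. With the 3 lines pooled in 1 fit (18 libraries), 5 of the 10 genes passed, all higher, where 17.9% of all genes passed in either direction. The same count, 5, came from every alternative and from leaving out any library. The median log2 fold change of the 10 genes was 0.21, beside 0.00 over all genes.

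Line by line the test had less reach. In shNT cells 2 of the 10 genes passed, where 0.615% of all genes did. In shNR4A2 cells 0 passed in edgeR and 1 in DESeq2, where edgeR called 0.0113% of all genes, and 5 members had an unadjusted p under 0.05. The replicate numbers paired the shNR4A2 libraries, and with the replicate as a block 5 of the 10 passed, and 361 genes in all. In shNR4A3 cells 3 passed, where 1.13% of all genes did. The 3 comparisons use separate libraries.

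SLC39A14 without LPS went from 52.1, 47.6 and 48.3 CPM at 5% CO2 to 85.3, 82.0 and 68.6 CPM at 10% CO2 in shNT cells. In shNR4A2 cells it went from 70.4, 58.9 and 61.2 to 89.2, 93.7 and 77.9 CPM, and in shNR4A3 cells from 68.7, 74.3 and 70.5 to 106, 111 and 102 CPM. The groups did not overlap in any line. The pooled log2 fold change was 0.57 ± 0.05, adjusted p = 1.28e-06, a 1.49-fold rise. By line it was 0.68 ± 0.11, adjusted p = 0.0325 in shNT, 0.45 ± 0.12, adjusted p = 0.293 in shNR4A2 (with the block, adjusted p = 0.0143, and in 1 fit to all 36 libraries 0.0283) and 0.59 ± 0.08, adjusted p = 0.00643 in shNR4A3 cells. The shNT call was lost without replicate 1 or 3 at 5% CO2 (adjusted p = 0.21 and 0.0559) or replicate 2 at 10% CO2 (0.291), and the shNR4A3 call without replicate 2 at 10% CO2 (0.0815), while the log2 fold change stayed between 0.56 and 0.72 in those fits.

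MT1X, a metallothionein that responds strongly to metals, went from 14.99, 13.6 and 14.95 to 20.5, 25.0 and 22.7 CPM in shNT, from 27.3, 24.3 and 23.6 to 40.8, 33.7 and 31.7 CPM in shNR4A2 and from 20.2, 17.3 and 18.1 to 26.1, 27.4 and 24.0 CPM in shNR4A3 cells. Again no line had overlapping groups. The pooled log2 fold change was 0.55 ± 0.06, adjusted p = 5.58e-06. It passed in shNT (0.65 ± 0.12, adjusted p = 0.0325) and shNR4A3 cells (0.49 ± 0.11, adjusted p = 0.0368), and in shNR4A2 cells it was 0.50 ± 0.13, adjusted p = 0.312, or 0.015 with the block. The shNT call was lost without replicate 1, 2 or 3 at 5% CO2 (adjusted p = 0.211, 0.0582 and 0.0716) or replicate 2 at 10% CO2 (0.312). The shNR4A3 call was lost in 1 fit to all 36 libraries (adjusted p = 0.138) and without any library but replicate 1 at 5% CO2, with adjusted p between 0.0595 and 0.275.

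MT1G, an inducible metallothionein, went from 12.2, 14.8 and 14.0 to 16.2, 22.7 and 26.1 CPM in shNT, from 17.1, 20.8 and 18.3 to 24.8, 26.2 and 24.5 CPM in shNR4A2 and from 11.4, 13.6 and 9.88 to 17.4, 17.3 and 16.3 CPM in shNR4A3 cells, without overlap. The pooled log2 fold change was 0.55 ± 0.08, adjusted p = 8.62e-05. By line it passed in shNR4A3 cells only narrowly (0.56 ± 0.13, adjusted p = 0.0491), a call that was lost without any library but replicate 2 at 5% CO2 (adjusted p between 0.0606 and 0.275). In shNT cells it was 0.67 ± 0.16, adjusted p = 0.0774, and it passed there with no filter (adjusted p = 0.000516), the block (0.0423), DESeq2 (0.0135) and 1 fit to all 36 libraries (0.0312). In the fit to all libraries the shNR4A3 call was lost (0.112). In shNR4A2 cells it was 0.43 ± 0.13, adjusted p = 0.406, or 0.036 with the block.

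MT2A went from 13.6, 17.2 and 17.6 to 17.4, 24.0 and 29.2 CPM in shNT cells, where the ranges overlapped, from 19.3, 27.3 and 24.4 to 35.1, 38.3 and 33.0 CPM in shNR4A2 cells and from 15.6, 19.8 and 15.7 to 20.7, 25.1 and 22.3 CPM in shNR4A3 cells, where they did not. Its pooled log2 fold change was 0.52 ± 0.09, adjusted p = 0.000296. MT1E, the most abundant metallothionein at rest, gave 0.32 ± 0.08, adjusted p = 0.0049, and its groups were apart only in shNR4A2 cells (44.9, 54.0 and 51.4 against 63.4, 70.9 and 60.0 CPM). Neither gene passed in a single line in the edgeR fit with the filter and no block. With the block both passed in shNR4A2 cells (adjusted p = 0.0133 for MT2A and 0.0303 for MT1E), and MT2A passed in shNR4A3 cells (0.0177), where the numbers do not pair the libraries. With no filter on low counts MT2A passed in shNT, shNR4A2 and shNR4A3 cells (adjusted p = 0.00747, 0.0323 and 0.0186) and MT1E in shNT cells (0.0339). DESeq2 called MT2A in shNR4A2 cells (0.0451). In shNT cells replicate 1 at 10% CO2 lay lowest of its group for MT2A, MT1E and MT1G, and without it all 3 passed (adjusted p = 0.0107, 0.0107 and 0.00664).

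The importer SLC39A8, for its part, stood at 85.7, 88.0 and 84.8 CPM at 5% and 90.3, 86.9 and 70.8 CPM at 10% CO2 in untreated shNT cells. In shNR4A2 cells it went from 49.5, 47.8 and 51.0 to 53.2, 49.7 and 54.5 CPM. In shNR4A3 cells it went from 50.6, 54.2 and 54.4 to 61.1, 63.6 and 56.3 CPM, where the groups were apart but the test was not passed (0.20 ± 0.08, adjusted p = 0.245). Its pooled log2 difference without LPS was 0.07 ± 0.05, adjusted p = 0.36. SLC39A10 gave 0.07 ± 0.09, SLC30A1 -0.09 ± 0.08, MT1F 0.05 ± 0.07 and MTF1 0.11 ± 0.06, and none of these 4 passed the test (adjusted p between 0.208 and 0.657). The difference between MT1F and the other metallothioneins was not tested.

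With LPS present, the comparison from which the choice was made gave the following values, with no test. SLC39A8 went from 134, 139 and 179 CPM at 5% CO2 to 218, 252 and 211 CPM at 10% CO2 in shNT cells, a log2 difference of 0.60 ± 0.12. It was 0.82 ± 0.22 in shNR4A2 and 0.63 ± 0.26 in shNR4A3 cells. SLC39A14 went from 59.1, 57.4 and 59.7 to 108, 109 and 105 CPM in shNT cells (0.87 ± 0.07), and differed by 0.52 ± 0.11 in shNR4A2 and 0.57 ± 0.08 in shNR4A3 cells. For both genes all 10% CO2 libraries lay above all 5% CO2 libraries of the same line.

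MT2A with LPS went from 23.8, 25.7 and 45.4 to 40.0, 88.3 and 63.3 CPM in shNT cells, with overlap, from 38.7, 26.4 and 62.8 to 80.8, 90.1 and 84.3 CPM in shNR4A2 cells and from 44.6, 25.8 and 49.3 to 77.0, 103 and 70.3 CPM in shNR4A3 cells. The log2 differences were 1.02 ± 0.42, 0.99 ± 0.29 and 1.06 ± 0.27. MT1X, MT1E and MT1G differed by 0.39 to 0.76 on the log2 scale over the 3 lines, MT1F by 0.10 to 0.25, and MTF1 by 0.19 to 0.22. SLC39A10 lay between -0.16 and 0.14 and SLC30A1 between -0.06 and 0.22. The medians over the 10 genes were 0.49, 0.45 and 0.58 in shNT, shNR4A2 and shNR4A3 cells, beside 0.00 over all genes and 0.06 to 0.09 over the 16 tested genes of the wider zinc list.

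**Figure D3:**
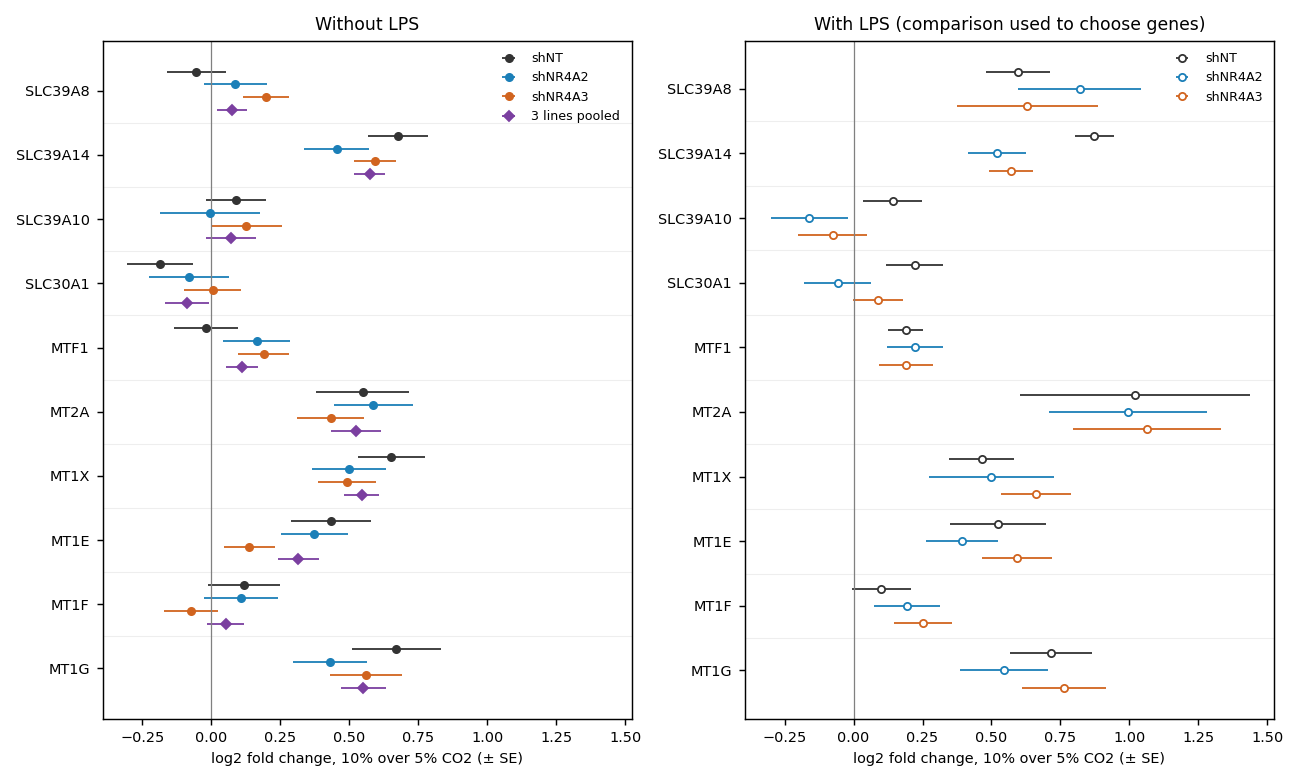
Log2 fold change at 10% over 5% CO2 (horizontal axes, points with SE bars) without LPS (left, filled, with the 3 lines pooled as diamonds) and with LPS (right, open, the comparison the choice was made on). Without LPS, SLC39A14, MT2A, MT1X and MT1G lie at 0.52 to 0.57 in the pooled fit, and SLC39A8 lies at 0.07.

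Summed over the 5 metallothioneins, untreated shNT cells held 321 ± 26.8 TPM (SD, n = 3) at 5% CO2 and 423 ± 92.0 TPM at 10% CO2. With LPS they held 323 ± 68.3 TPM at 5% CO2 and 464 ± 82.2 TPM at 10% CO2. The untreated shNR4A2 cells held 479 ± 35.8 and 611 ± 58.2 TPM, and the untreated shNR4A3 cells 332 ± 31.5 and 397 ± 22.6 TPM. The make-up of this sum differed with LPS. MT2A made up 13.2% to 17.5% of it in the 18 libraries without LPS and 18.8% to 38.4% in the 18 with LPS, with no overlap between them. No sum over the genes was tested.

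**Figure D4:**
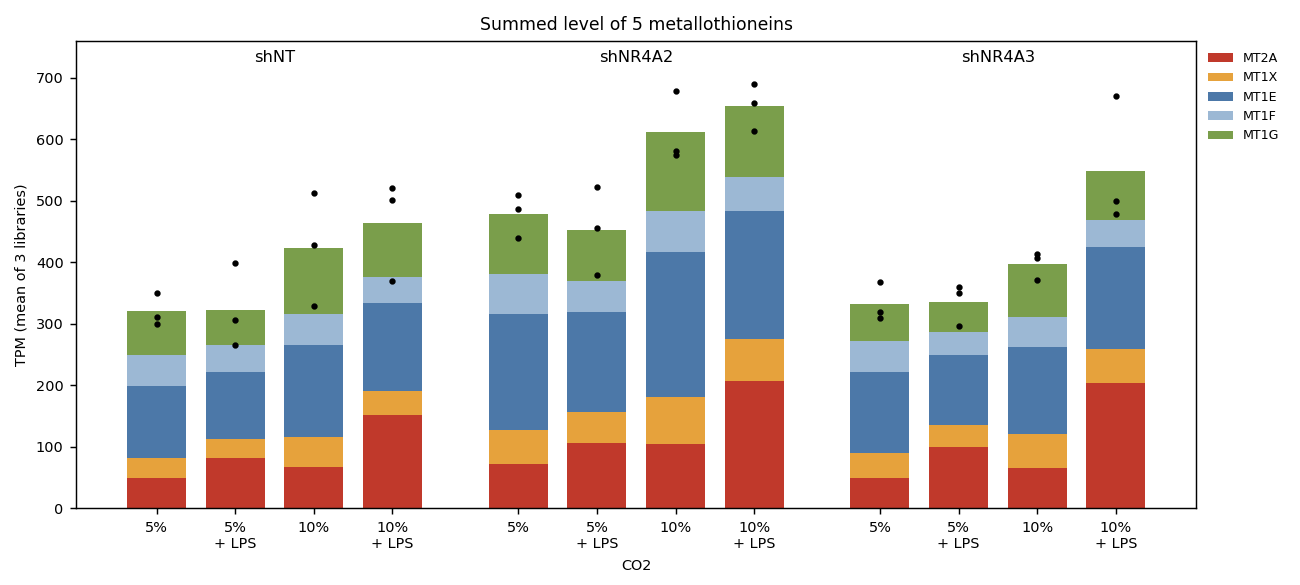
Summed TPM of MT2A, MT1X, MT1E, MT1F and MT1G (vertical axis, from 0), stacked as means of 3 libraries for each CO2 and LPS treatment in the 3 lines, with a point for the sum in each library. MT2A takes 13.2% to 17.5% of the sum without LPS and 18.8% to 38.4% with LPS.

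The third comparison set the knockdown lines against shNT cells, over both CO2 levels. In shNR4A2 cells without LPS 9 of the 10 genes passed, 7 higher and 2 lower, where 20.3% of all genes passed, and with LPS 7 of the 8 genes other than SLC39A8 and SLC39A14 passed, where 27.4% did. In shNR4A3 cells 4 passed without LPS, where 16.3% of all genes did, and with LPS 2 of the same 8, where 25.7% did. The monocyte markers differed between the same lines, as given above, and their part in these results was not tested.

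SLC39A8 was lower in both knockdown lines without LPS. It stood at 49.5, 47.8 and 51.0 CPM at 5% CO2 in shNR4A2 cells and 50.6, 54.2 and 54.4 CPM in shNR4A3 cells, against 85.7, 88.0 and 84.8 CPM in shNT cells. At 10% CO2 the values were 53.2, 49.7 and 54.5, 61.1, 63.6 and 56.3 and 90.3, 86.9 and 70.8 CPM, and the lines were apart at both CO2 levels. The log2 fold changes were -0.73 ± 0.07, adjusted p = 1.29e-06 and -0.58 ± 0.07, adjusted p = 4.09e-06. With LPS, where no test is given, the differences were -0.04 ± 0.15 and -0.10 ± 0.16.

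SLC39A14 was higher in both knockdown lines without LPS, by 0.48 ± 0.06, adjusted p = 2.16e-05 in shNR4A3 and by 0.25 ± 0.08, adjusted p = 0.0299 in shNR4A2 cells on the log2 scale. The shNR4A2 call was lost without any 1 of 6 of the 12 libraries (shNT replicates 2 and 3 at 5% CO2 and 3 at 10% CO2, shNR4A2 replicate 1 at 5% CO2 and 1 and 2 at 10% CO2), with adjusted p between 0.0587 and 0.0853. The importer SLC39A10 was lower in shNR4A2 cells without LPS (-0.42 ± 0.11, adjusted p = 0.0143) and with LPS (-0.49 ± 0.09, adjusted p = 0.00086), and in shNR4A3 cells with LPS (-0.67 ± 0.08, adjusted p = 3.06e-05). In LPS-treated cells at 10% CO2 it stood at 35.2, 42.3 and 37.8 CPM in shNT, 20.3, 26.2 and 28.0 CPM in shNR4A2 and 18.5, 24.6 and 24.4 CPM in shNR4A3 cells, and neither knockdown line overlapped shNT. The exporter SLC30A1 was higher in shNR4A2 cells without LPS (0.38 ± 0.10, adjusted p = 0.0149) and with LPS (0.29 ± 0.08, adjusted p = 0.0141). Its shNR4A2 and shNT libraries overlapped at both CO2 levels without LPS, and with LPS they were apart at 1 of the 2. In shNR4A3 cells without LPS its call (0.27 ± 0.08, adjusted p = 0.036) was kept only on leaving out shNT replicate 1 at 10% CO2, shNR4A3 replicate 1 or 2 at 5% CO2 or shNR4A3 replicate 2 at 10% CO2, and otherwise, as in 1 fit to all 36 libraries (0.051), it was lost, with adjusted p on leaving out a library between 0.053 and 0.116.

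All 5 metallothioneins were higher in shNR4A2 than in shNT cells without LPS. MT1X led with 0.71 ± 0.09, adjusted p = 1.48e-05, from 14.99, 13.6 and 14.95 CPM in shNT to 27.3, 24.3 and 23.6 CPM in shNR4A2 cells at 5% CO2. MT1E gave 0.64 ± 0.10, adjusted p = 0.000195 and stood at 31.0, 29.9 and 33.4 against 44.9, 54.0 and 51.4 CPM. MT2A gave 0.57 ± 0.12, MT1F 0.38 ± 0.09 and MT1G 0.33 ± 0.11, adjusted p = 0.0347. The MT1G call was kept only without shNT replicate 2 at 5% CO2 or 3 at 10% CO2 or shNR4A2 replicate 1 or 3 at 5% CO2, and otherwise the adjusted p was between 0.0539 and 0.0919. With LPS the 4 MT1 genes again passed, by 0.31 to 0.73 on the log2 scale, and MT2A did not (0.41 ± 0.27, adjusted p = 0.306). MTF1 was higher in shNR4A2 cells with LPS (0.19 ± 0.06, adjusted p = 0.0225), a call lost without shNT replicate 1 at 5% CO2 with LPS, shNR4A2 replicate 3 at 5% CO2 with LPS or shNR4A2 replicate 2 at 10% CO2 with LPS (adjusted p = 0.0526, 0.0629 and 0.0631). Without LPS it missed the threshold (0.21 ± 0.08, adjusted p = 0.0736) and passed without shNT replicate 3 at 5% CO2 (0.0315), with DESeq2 (0.0473) and in 1 fit to all 36 libraries (0.0168).

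In shNR4A3 cells MT1X was the 1 metallothionein that passed, without LPS (0.27 ± 0.08, adjusted p = 0.0208) and with LPS (0.36 ± 0.09, adjusted p = 0.0073). Without LPS the call was lost on leaving out shNT replicate 2 at 5% CO2, shNR4A3 replicate 1 at 5% CO2 or shNR4A3 replicate 2 at 10% CO2 (adjusted p = 0.057, 0.0691 and 0.0606), with no filter (0.0601) and in 1 fit to all 36 libraries (0.105). The other 4 had log2 differences between -0.29 (MT1G, adjusted p = 0.0795) and 0.05 without LPS. MT1G passed as lower with no filter (adjusted p = 0.0261) and without shNT replicate 1 at 10% CO2 or shNR4A3 replicate 2 at 5% CO2 (adjusted p = 0.00888 and 0.0376). With LPS, SLC30A1 (0.18 ± 0.07, adjusted p = 0.0656) and MTF1 (0.16 ± 0.06, adjusted p = 0.0552) missed the threshold in shNR4A3 cells, and both passed without shNR4A3 replicate 3 at 10% CO2 with LPS (adjusted p = 0.0443 and 0.0314). SLC30A1 also passed without shNT replicate 2 at 5% or 10% CO2 with LPS (0.049 and 0.0338), and MTF1 without shNR4A3 replicate 2 at 5% CO2 with LPS (0.00549). SLC30A1 passed too with RLE size factors (0.0499) and the block (0.0363), and MTF1 with RLE size factors (0.0401), no filter (0.044), the block (0.0481) and DESeq2 (0.0381). Without LPS, SLC39A10 (-0.21 ± 0.09, adjusted p = 0.108) and MTF1 (-0.11 ± 0.07, adjusted p = 0.335) did not pass in shNR4A3 cells. The 2 knockdown lines share the shNT libraries in these comparisons, and no test was made of one knockdown line against the other.

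**Figure D5:**
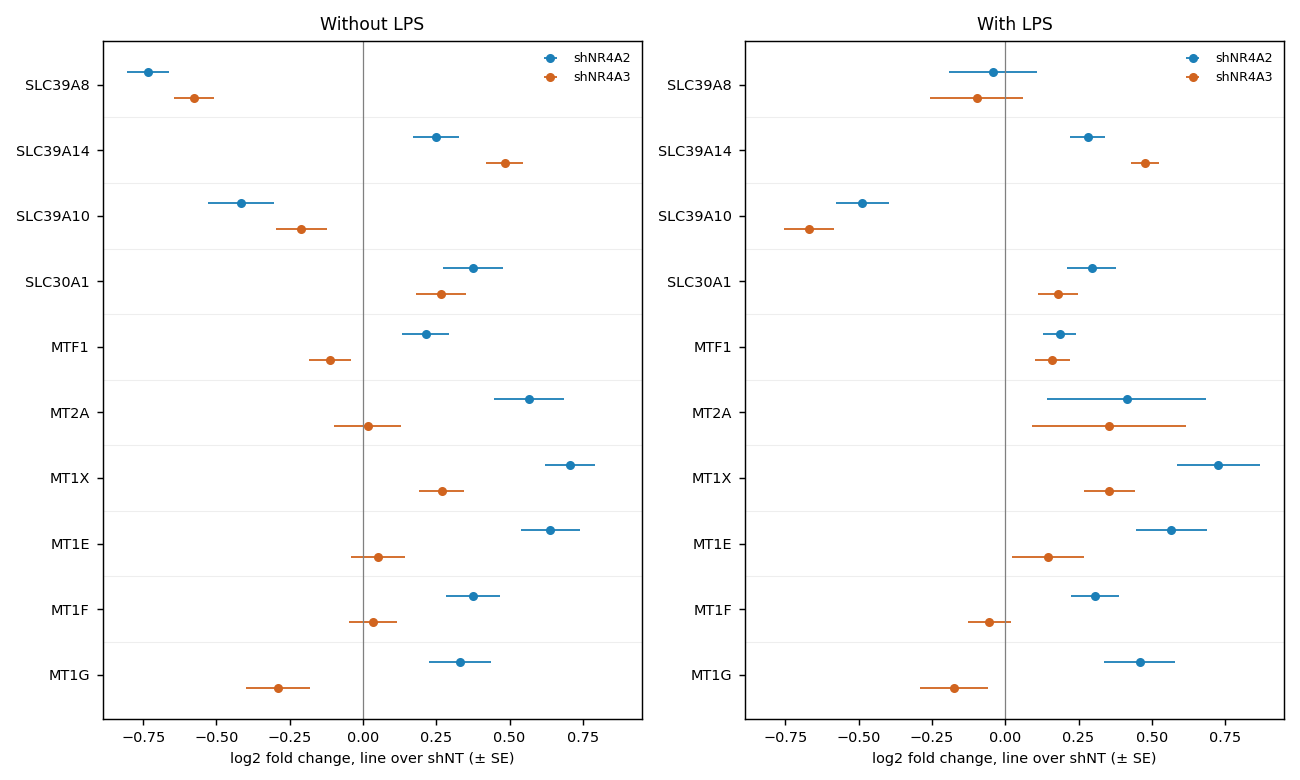
Log2 fold change of shNR4A2 or shNR4A3 over shNT cells (horizontal axes, points with SE bars) for the 10 genes without LPS (left) and with LPS (right), over both CO2 levels. SLC39A8 lies at -0.73 and -0.58 without LPS and near 0 with LPS, and the metallothioneins lie above 0 in shNR4A2 cells.

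An interaction term at 5% CO2 tested whether a knockdown line responded to LPS otherwise than shNT cells did. For shNR4A2 cells 0 of the 8 genes other than SLC39A8 and SLC39A14 and 0% of all genes passed in edgeR, and DESeq2 called 0 of the 8. For shNR4A3 cells the counts were likewise 0 and 0%, with 0 in DESeq2. Of these 8, MTF1 in shNR4A3 cells alone had an unadjusted p under 0.05, and none did in shNR4A2 cells. For MTF1 the LPS response of shNR4A3 cells differed from that of shNT cells by 0.38 ± 0.14 on the log2 scale (adjusted p = 0.9996). SLC39A8, described without a test, differed by 0.65 ± 0.27 for shNR4A2 and 0.59 ± 0.26 for shNR4A3 cells, and without shNR4A3 replicate 2 at 5% CO2 with LPS the latter was 0.81. For MT2A the differences were -0.12 ± 0.44 and 0.26 ± 0.40, so their errors exceed their size. The importer SLC39A10 differed by 0.03 ± 0.21 and -0.33 ± 0.19, and SLC30A1 and the MT1 genes lay between -0.26 and 0.11. SLC39A14, also without a test, differed by 0.10 ± 0.13 and 0.10 ± 0.11.

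The other zinc transporters and metallothioneins were followed as a list of 28 further genes, of which 16 passed the filter. MT1H had no count in any library, and MT1B and MT1HL1 had no more than 1. With LPS 3 of the 16 passed in shNT cells at 5% CO2 and 6 at 10% CO2, where 22.9% and 31.2% of all genes passed. In shNR4A2 cells 5 and 6 passed (18.2% and 35% of all genes), and in shNR4A3 cells 5 and 7 (25.3% and 42.1%). SLC39A1, an importer of the plasma membrane, rose in all 6 comparisons, by 0.33 to 0.54 on the log2 scale, and SLC30A7, a transporter of the secretory pathway, in 5, by 0.55 to 0.83. SLC39A13 rose in the 4 comparisons of the knockdown lines, by 0.49 to 0.86. SLC39A3 fell in 5, with log2 fold changes of -0.42 to -0.77. SLC30A5, a transporter of the secretory pathway, rose in 4 by 0.20 to 0.35, but with library size only it lost every such call and stood at -0.06 in shNR4A3 cells at 10% CO2. SLC30A4 rose in all 6 from a level close to none, with 0 to 4 counts per library without LPS and 9 to 59 with LPS. Where only library size was corrected, SLC39A1 lost its call at 5% CO2 in both knockdown lines, and SLC39A13 and SLC30A7 lost theirs in shNR4A2 cells at 5% CO2.

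Without LPS, CO2 moved 0 of these 16 genes in any single line in edgeR or DESeq2, although 3, 0 and 4 had an unadjusted p under 0.05 in shNT, shNR4A2 and shNR4A3 cells. In the pooled fit 4 of the 16 passed, where 17.9% of all genes did. SLC30A5 (0.30 ± 0.08, adjusted p = 0.0159) and SLC39A3 (0.27 ± 0.07, adjusted p = 0.00617) were higher at 10% CO2, and SLC39A7 (-0.16 ± 0.05, adjusted p = 0.0174) and SLC39A9 (-0.18 ± 0.06, adjusted p = 0.0326) were lower, and the libraries of each were apart in 1 of the 3 lines. MT1M and MT1L, genes of the metallothionein family, had only 2 to 38 and 13 to 95 counts per library. Between lines, both were higher in shNR4A2 than in shNT cells without LPS (1.43 ± 0.32 and 0.77 ± 0.17) and with LPS (1.21 ± 0.31 and 0.91 ± 0.20). SLC30A3, with 12 to 60 counts per library, was higher in shNR4A2 cells without LPS (0.94 ± 0.21). SLC39A11 was lower in shNR4A2 cells without LPS (-0.39 ± 0.10) and with LPS (-0.33 ± 0.11, adjusted p = 0.0381). MT1L was lower in shNR4A3 cells without LPS (-0.95 ± 0.19). SLC39A13 was higher in shNR4A2 cells without LPS (0.37 ± 0.09, adjusted p = 0.00578) and with LPS (0.78 ± 0.08). In shNR4A3 cells it was higher with LPS (0.75 ± 0.08) and missed the threshold without (0.18 ± 0.07, adjusted p = 0.095). The shNR4A3 cells with LPS also had more SLC30A4 (1.19 ± 0.20).

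Genes whose 12 condition means of log2 CPM ran most like those of a member are given by Pearson's r, as a description over means that share libraries and LPS and CO2 treatments. For SLC39A8 they were APLF, CNTNAP3, MEOX2, DDB1 and GPC4, with r between 0.983 and 0.988, and 797 of 17720 genes had r above 0.9. For SLC39A14 they were an unnamed gene, BCAT1, TTC39B, DESI1 and SELENOT (r between 0.965 and 0.976), with 64 genes above 0.9. For MT2A they were RBM10, RETREG1, MOXD1, the carboxypeptidase gene CPM and CCDC124 (r between 0.966 and 0.971), with 229 genes above 0.9.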

How the data were processed

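Poly(A) RNA of 36 THP-1 libraries, 3 per condition, had been sequenced as paired reads. The authors deposited raw gene counts from featureCounts (Subread 1.5.2) after Trimmomatic 0.36 and STAR 2.5.2b on GRCh38, per the labels and the submitters' processing notes. Which annotation was used, if strand was considered, and how read pairs were counted is not given in the sources used here. Library totals had a median of 19639071 counts, and 98.1% of the 57500 gene IDs matched a symbol. Precision is limited by 3 replicates per condition.

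Counts were tested as deposited with edgeR 4.0.16 (R 4.3.3, limma 3.58.1), using robust quasi-likelihood fits, TMM scaling and filterByExpr (minimum count 10, minimum total 15), which left 17720 genes. P-values were two-sided and Benjamini-Hochberg adjusted over all of them, and a gene passed under 0.05. Errors of log2 fold changes are SE. Each comparison was fitted to its own libraries. Contrasts were of condition means. Lines were compared over the mean of both CO2 levels, and the pooled CO2 fit held the line as a covariate. Per-length levels (TPM) came from the deposited counts and the gene lengths beside them. The edgeR and DESeq2 fits were run on simulated counts with known changes for some of the comparisons.

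The alternatives tried were no filter, scaling by library size only, RLE size factors, a replicate block, DESeq2 1.42.0, 1 fit to all 36 libraries and leaving out each library. The replicate numbers were taken as pairing a comparison where all same-numbered libraries deviated together (r over 0.1, genes with a mean of at least 10 CPM). This held for LPS in shNT cells at 10% CO2, for LPS in both knockdown lines at both CO2 levels (lowest r 0.15) and for CO2 in shNR4A2 cells (lowest r 0.46), but not elsewhere.

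The 10 genes, the list of 28 other zinc genes and the cell type markers were chosen with earlier results of these data known. All 10 genes could be named in any comparison. From the other zinc genes, up to 3 called genes per direction with the largest change and libraries apart were to be named. The 5 genes most like SLC39A8, SLC39A14 and MT2A were named by Pearson's r. SLC39A7 and SLC39A9 are named as part of a count, and SLC39A13 without LPS is given beside its values with LPS.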

Additional observations from a re-analysis of the deposited data

Results flagged for a closer look

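SLC39A10 gave log2 fold changes of opposite sign with LPS at 10% CO2 in 2 lines. Its log2 fold change was 0.27 in shNT cells, with all 3 LPS libraries above the 3 untreated ones, and -0.30 in shNR4A3 cells, with all 3 LPS libraries below. In edgeR the shNT value did not pass (adjusted p = 0.0825), though it did with the block or without untreated replicate 1. The shNR4A3 value passed (0.0421). That call was lost on leaving out any 1 of 4 libraries, with DESeq2 and in 1 fit to all 36 libraries. The difference between the lines was not tested at 10% CO2.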

How the results depend on the processing

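Of 2400 values of the 10 genes recomputed under the alternatives, 2263 stayed on their side of the threshold, 87 lost a call, 50 gained one and 0 reversed. Values that passed in neither fit count as staying whatever their sign, and 103 of the 2400 were such values with the other sign. The cause of the changes below was not tested. The 2400 values include SLC39A8 and SLC39A14 in comparisons with LPS libraries, only as a description. Counts of genes passing are out of 10 and are given without LPS. Where LPS libraries enter, only changed calls of the other 8 genes are named, and further single calls are given above. With the replicate as a block, MT2A joined the calls for LPS in shNR4A2 cells at 5% CO2. The CO2 response of shNR4A2 cells went from 0 to 5. SLC30A1 and MTF1 joined the calls for shNR4A3 against shNT cells with LPS. Over all genes the block called 4904 in place of 3220, 361 in place of 2 and 5462 in place of 4558. The numbers do not pair the libraries of the last comparison, and the block moved no other count without LPS by over 1.5 times. With LPS the block also added SLC39A10 in shNT cells at 10% CO2 and lost MT2A in shNR4A3 cells at 5% CO2, as given above. With DESeq2 MT2A passed for LPS in shNR4A2 cells at 5% CO2 and the CO2 response of shNR4A2 cells gave 1, with 3106 and 43 genes in all. With 1 fit to all 36 libraries MT2A again passed in the former and the latter gave 1, with 5211 and 58 genes in all. The fit to all libraries also gave 1 in place of 3 for the CO2 response of shNR4A3 cells and 2 in place of 4 for shNR4A3 against shNT cells without LPS. Over all genes it called 107 in place of 200 and 2742 in place of 2885. Without the filter, the CO2 responses of shNT and shNR4A2 cells gave 5 and 1, with 418 and 87 genes in all. With library size only, MT1X and MT1E lost their calls for LPS in shNR4A3 cells at 10% CO2, with 8760 genes in all in place of 7456. With RLE size factors, SLC30A1 and MTF1 passed for shNR4A3 against shNT cells with LPS, with 4486 genes in all.

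Leaving out 1 library gave 0 to 5 genes for CO2 in shNT cells and 0 to 2 for CO2 in shNR4A3 cells. It gave 2 to 5 for shNR4A3 against shNT cells without LPS. The fits with no library left out called 2, 3 and 4 of the 10, and 0.615%, 1.13% and 16.3% of all genes. Shares over all genes with a library left out are not given here. For comparisons with LPS libraries, changed calls of the 8 genes other than SLC39A8 and SLC39A14 are given above. In the interaction at 5% CO2 none of those 8 passed on leaving out any library. The pooled CO2 count stayed at 5 in every case. Low counts of SLC30A3, SLC30A4, MT1M and MT1L limit their fold changes.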
